A study of Homo sapiens with 4 samples.

Results

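Well-covered antisense RNA rows are the rows of the deposited count table whose name ends in -AS, with or without a digit, and whose raw count averaged at least 100 over the 4 libraries. They were chosen by that mean count, which includes both groups, so their level describes the choice and is not a result. The table holds 59385 rows, of which 1564 carry such a name and 346 of these reached the minimum. HMMR-AS1, TMPO-AS1, ENO1-AS1 and rows whose name starts with HOX were left out, 8 rows in all, which leaves 338 members. Each was set beside the row of the gene named before -AS, called the faced row here. Just inside the minimum stood LAMA5-AS1 (mean 100.5 counts) and GLYCTK-AS1 (100.25 counts), and just outside it ZNF433-AS1 (98.0 counts) and GCC2-AS1 (97.5 counts).

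RNA was sequenced from C4-2, an epithelial line of human prostate cancer that descends from LNCaP, expresses the androgen receptor and no longer needs androgen to grow. Cells carried a small interfering RNA against EZH2 (siEZH2, 2 libraries) or a control small interfering RNA (siCTRL, 2 libraries), in the same serum-containing medium and with no other agent named in the labels. EZH2 is the histone methyltransferase of Polycomb repressive complex 2, and the comparison asks how expression changes when it is depleted. The model is limited to 1 cell line, and the labels do not say whether replicates were separate cultures, so p-values reflect only the spread of these samples, and that spread may be technical.

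An antisense RNA is transcribed from the DNA strand opposite another gene, so where exons of both cover the same bases the RNAs are complementary. Some such RNAs are known to silence the gene they face, to bring chromatin complexes to it, or to pair with its messenger RNA and change its stability or splicing. Many others start at a shared bidirectional promoter and have no known role.

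What a row name says about strand was limited here. Per the labels' protocols the kit keeps strand, but the strand setting of the counting is not given in the sources used here. Without it, reads from a gene and its antisense partner cannot be told apart, and counts of a member below are counts under that row's name. In bulk RNA, fewer cells of a type and less RNA per cell cannot be told apart either.

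Total counts were 6362561 and 6162123 in the siEZH2 libraries, against 6867542 and 6818482 in the siCTRL libraries. EZH2 itself had 60 and 131 counts in the libraries labelled siEZH2, against 39 and 59 counts in the libraries labelled siCTRL, a log2 fold change of 0.51 (SE 0.52, Benjamini-Hochberg adjusted p = 0.621 in edgeR's quasi-likelihood test). Raw counts under the EZH2 name were thus no lower with siEZH2 than with siCTRL, and every direction below is that of the labels. The limit on strand given above holds for this row too. Whether its counts measure EZH2 messenger RNA, and so whether EZH2 was depleted, was not tested. All 12 luminal prostate markers examined had counts, summing to 389.6 and 208.8 counts per kb of row in the siEZH2 libraries, against 381.5 and 376.1 in the siCTRL libraries. KRT8 alone held 20476 and 10048 of these counts in the siEZH2 libraries, against 19289 and 18784 in the siCTRL libraries. Markers of blood, stromal, endothelial and basal cells (15 of 15 with counts) summed to 5.90 and 6.95 counts per kb in the siEZH2 libraries, against 1.86 and 4.31 in the siCTRL libraries, and their part in the results was not tested.

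Most members ran across exons of the gene they are named for. Of the 338 members, 333 could be placed by name on GENCODE release 29 (GRCh38), and 199 have the same exonic length there as in the deposited table. Exons of 314 members overlap exons of the faced gene on the other strand, by a median of 312 bases and by 4 to 11381 bases. A further 12 overlap the faced gene's body without touching its exons, 4 lie apart from it, and 8 could not be compared. Counting any coding gene on the other strand, 326 of the placed members overlap a coding exon, and 63 of them face 2 or more coding genes. For 49 of 323 members the largest overlap was with another coding gene than the one in the name. Faced rows were shared in 4 cases, in which PTOV1, ST7, ZNF32 and ARAP1 are each named by 2 members, so those pairs are not separate observations. MYL12-AS1 and DM1-AS had no row for the gene named.

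Stretches of 3 members are shown, RUSC1-AS1 because it is among the rows with the highest counts and PRC1-AS1 and BACE1-AS because they differ widely between groups. They are written 5′ to 3′ on the member's strand from GENCODE release 29 transcripts. Capitals mark bases opposite coding sequence of the gene faced, and lower case marks bases opposite its intron. The RUSC1-AS1 stretch, which is opposite FDPS, lies at chr1:155319829-155319948 on the minus strand. The PRC1-AS1 stretch lies at chr15:90981982-90982046 on the plus strand and that of BACE1-AS at chr11:117293089-117293208 on the plus strand.
RUSC1-AS1: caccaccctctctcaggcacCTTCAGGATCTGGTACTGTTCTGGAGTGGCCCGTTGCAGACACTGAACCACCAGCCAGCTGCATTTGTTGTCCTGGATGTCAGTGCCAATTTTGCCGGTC
PRC1-AS1: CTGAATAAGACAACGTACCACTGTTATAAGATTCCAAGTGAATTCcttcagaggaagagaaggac
BACE1-AS: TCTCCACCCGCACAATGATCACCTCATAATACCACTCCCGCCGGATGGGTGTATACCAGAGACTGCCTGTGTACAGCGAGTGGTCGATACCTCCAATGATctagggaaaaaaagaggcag
In each of them the lower-case letters that touch the capitals are ac before them or ct after them. These are the letters gt and ag, with which introns usually begin and end, as read from the other strand. The members' exons therefore run past the splice sites of the gene faced.

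Member rows held far more counts per length than the rows they face. Together the members took 6.90% and 6.85% of all counts in the siEZH2 libraries, against 7.59% and 7.38% in the siCTRL libraries. The mean count of a member had a median of 501.5 and ran from 100.25 to 53703, while that of a faced row had a median of 60 and ran from 0.25 to 5777. Per kb of row length, 312 of 336 members (92.9%) held more counts than the faced row, and the ratio had a median of 22.9, with quartiles of 6.62 and 75.1. It passed 10 in 225 pairs, 100 in 60 and 1000 in 3. Choosing members on their own count raises this share. Among the 1166 named antisense rows under the minimum, 554 (47.5%) held more counts per kb than the faced row, with a median ratio of 0.963.

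**Figure D1:**
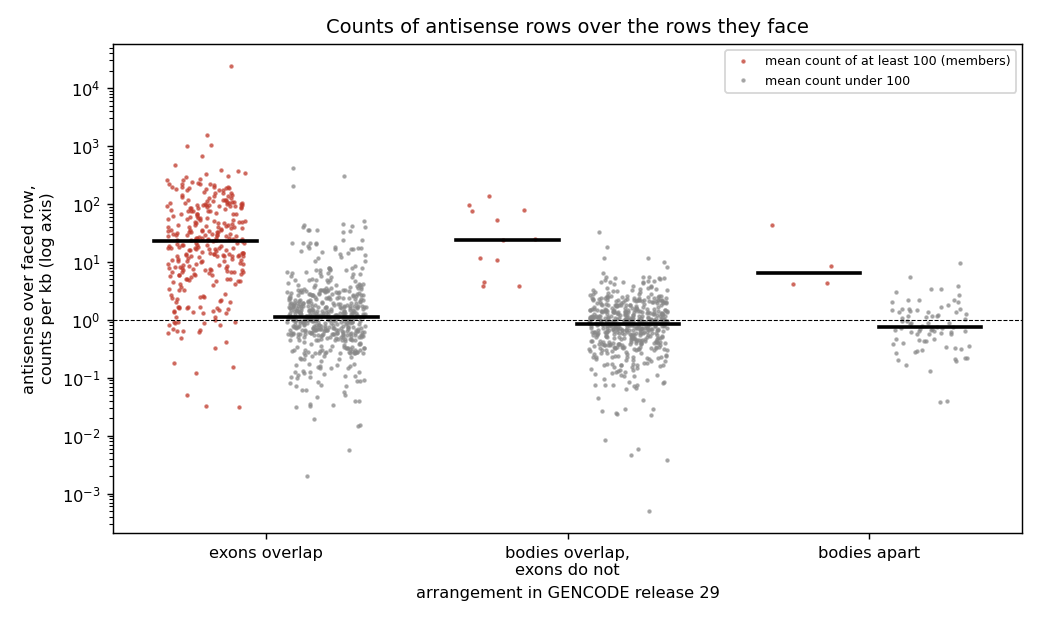
Counts per kb of each antisense row over those of the row it faces (log axis), by how the genes lie in GENCODE release 29; red points are members, grey points are named antisense rows under 100 counts, and bars are medians. Members with overlapping exons centre on 23.3, 12 members with overlapping bodies only on 24.3 and 4 members apart on 6.46, whereas rows under the minimum centre on 1.12 with overlapping exons, 0.856 with overlapping bodies only and 0.757 apart.

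Among members the share above the faced row was no higher where exons overlap. It was 291 of 314 (92.7%) with overlapping exons, 12 of 12 where only bodies overlap and 4 of 4 for those apart, the groups without exon overlap being small. Among rows under the minimum, the antisense row held more counts per kb in 54.9% of 534 cases with overlapping exons, in 40.9% of 536 cases where bodies overlap without exons, and in 39.2% of 79 cases that lie apart. Of the 16 members whose exons miss the named gene, 10 overlap exons of another coding gene. CSRP3-AS1 is opposite E2F8, a cell cycle transcription factor, ATXN7L3-AS1 is opposite UBTF, a ribosomal RNA gene transcription factor, and CDKN2B-AS1 is opposite CDKN2A, the p16 tumour suppressor gene. These opposite genes were named after their values were seen. The members held far more counts per kb than the opposite rows did, with 269 for CSRP3-AS1 against 6.83 for E2F8, and 791 for ATXN7L3-AS1 against 11.1 for UBTF.

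A smaller set went the other way, with 24 members holding fewer counts per kb than the faced row. The lowest ratio belonged to C10orf95-AS1 at 0.0317, followed by ENTPD1-AS1 at 0.0319 and HSD17B1-AS1 at 0.0506, which faces an oestradiol-forming dehydrogenase. TPT1-AS1, which faces the translationally controlled tumour protein gene, stood at 0.181. Of these, C10orf95-AS1, HSD17B1-AS1 and TPT1-AS1 were picked after their values were seen. A high ratio was thus not a property of each member.

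Of the 8 members with most counts 7 are described here, and several face housekeeping or chromatin genes. MIF-AS1 (chromosome 22, 23894426 to 23898930, minus strand) overlaps 687 exonic bases of MIF, a cytokine gene. Its row held 50112 and 52815 counts in the siEZH2 libraries, against 54512 and 57373 counts in the siCTRL libraries. MIF had 15 and 16 counts in the siEZH2 libraries, against 19 and 19 counts in the siCTRL libraries. The antisense row stood 1540 times above the faced row per kb, and raw counts of both were lower in each siEZH2 library than in any siCTRL library. Total counts were also lower in both siEZH2 libraries, and raw counts here and below are not scaled for that. PCBP1-AS1 had 19793 and 19230 counts in the siEZH2 libraries, against 26155 and 24207 counts in the siCTRL libraries, while PCBP1 had 99 and 118 counts in the siEZH2 libraries, against 113 and 124 counts in the siCTRL libraries. ATP6V0E2-AS1 had 14219 and 11477 counts in the siEZH2 libraries, against 11699 and 12769 counts in the siCTRL libraries, while ATP6V0E2 had 216 and 253 counts in the siEZH2 libraries, against 346 and 352 counts in the siCTRL libraries. Raw counts of PCBP1-AS1 and ATP6V0E2 were lower in each siEZH2 library, and those of PCBP1 and ATP6V0E2-AS1 overlapped between groups. SLC25A5-AS1 had 9639 and 10020 counts in the siEZH2 libraries, against 12272 and 12865 counts in the siCTRL libraries, while SLC25A5 had 20 and 104 counts in the siEZH2 libraries, against 81 and 83 counts in the siCTRL libraries.

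After scaling, most of these rows were lower in the siEZH2 libraries by less than their error allowed to call. MIF-AS1 averaged 6846 ± 444 CPM (normalised counts) in siEZH2 cells and 10176 ± 1658 CPM in siCTRL cells (SD, n = 2 each), and its log2 fold change was -0.57 (SE 0.54, edgeR adjusted p = 0.587). PCBP1-AS1 (opposite an RNA-binding protein gene) had a log2 fold change of -0.83, ATP6V0E2-AS1 (opposite a proton pump subunit gene) -0.36 and SLC25A5-AS1 (opposite a mitochondrial ADP/ATP carrier gene) -0.81. With scaling on well-covered rows, explained below, MIF-AS1 and ATP6V0E2-AS1 turned positive, at 0.14 and 0.33. Normalised counts of 6 of the 7 did not overlap between groups, and those of ATP6V0E2-AS1 did. These 6 were lower in each siEZH2 library, as were 67% of all rows with at least 100 counts.

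RUSC1-AS1, PRMT5-AS1 and H1-10-AS1 complete the 7. RUSC1-AS1 had 8858 and 7204 counts in the siEZH2 libraries, against 13023 and 12307 counts in the siCTRL libraries, a log2 fold change of -1.11 (SE 0.47, edgeR adjusted p = 0.272). FDPS, the farnesyl diphosphate synthase gene that it also faces, had 22 and 57 counts in the siEZH2 libraries, against 54 and 111 counts in the siCTRL libraries. PRMT5-AS1, opposite an arginine methyltransferase gene, had 8491 and 8248 counts in the siEZH2 libraries, against 11639 and 10892 counts in the siCTRL libraries. H1-10-AS1, opposite a linker histone gene, had 6392 and 6863 counts in the siEZH2 libraries, against 10669 and 10569 counts in the siCTRL libraries, a log2 fold change of -1.14 (SE 0.46, edgeR adjusted p = 0.256). RUSC1 had 28 and 66 counts in the siEZH2 libraries, against 77 and 66 in the siCTRL libraries, PRMT5 had 89 and 85 in the siEZH2 libraries, against 52 and 87 in the siCTRL libraries, and H1-10 had 221 and 291 in the siEZH2 libraries, against 375 and 374 in the siCTRL libraries. All 3 antisense rows stayed negative with scaling on well-covered rows, at -0.39, -0.16 and -0.41.

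**Figure D2:**
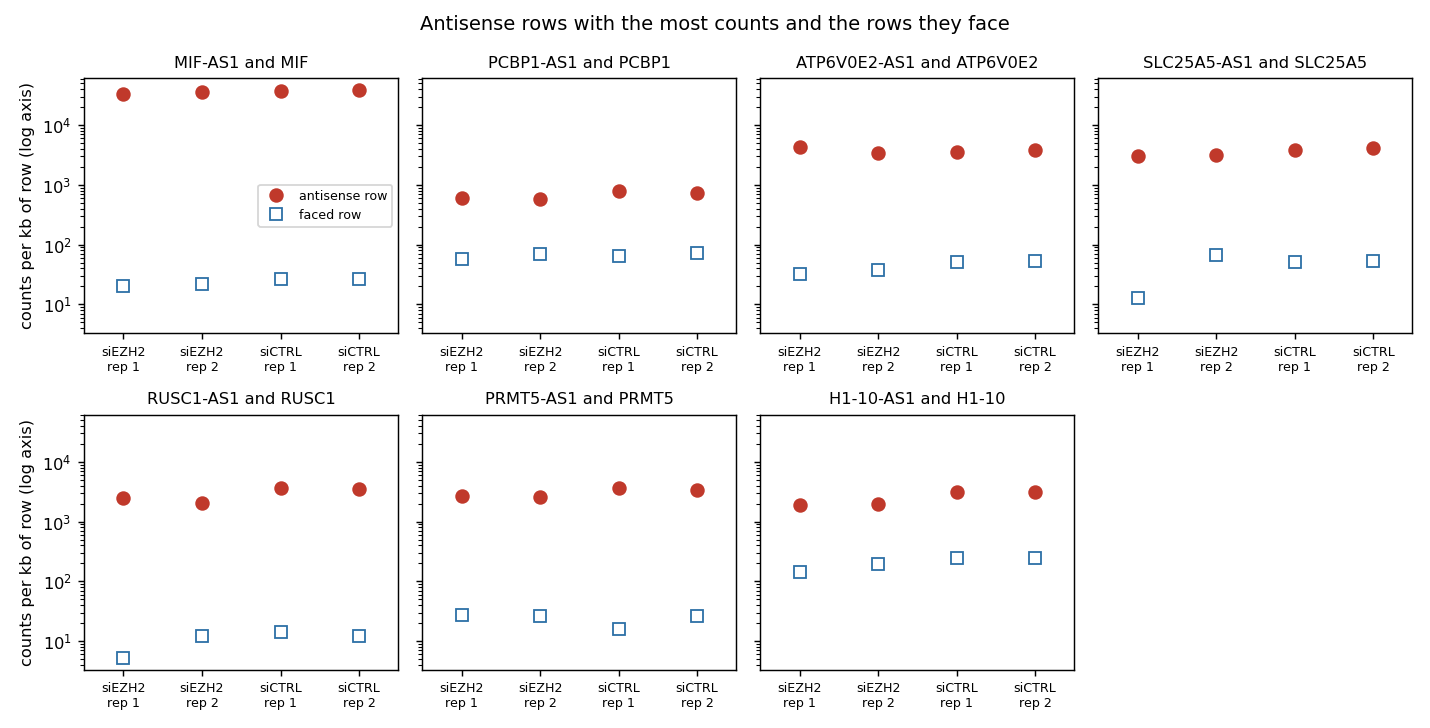
Counts per kb of row length (log axis) in each library for 7 of the 8 members with the highest mean count (filled circles) and the rows they face (open squares). In each of the 7 pairs and 4 libraries the antisense row lies above the faced row, at 36384 against 23.6 counts per kb on average for MIF-AS1 and 2521 against 208 for H1-10-AS1.

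No member passed edgeR's test between groups with TMM factors, while 2 other tests and some other edgeR settings called some lower. All 338 were tested, among 24431 rows, and edgeR called 0 members higher and 0 lower at an adjusted p of 0.05, where 0% of all tested rows were called in either direction. The lowest adjusted p of a member was 0.159. At an unadjusted p under 0.05, 4 members (1.18%) were higher and 112 (33.1%) were lower. Over all tested rows 8.53% were higher and 7.91% lower, and over those that average 100 counts or more 1.97% were higher and 29.3% lower. DESeq2 called 0 members higher and 67 (19.8%) lower, where it called 0.2% of rows with an adjusted p higher and 17.1% lower, and 0.219% and 18% of rows with at least 100 counts. The limma-voom test called 0 higher and 27 (7.99%) lower, where it called 0.045% of rows higher and 1.37% lower, and 0.153% and 5.87% of rows with at least 100 counts. Normalised counts of 245 members (72.5%) were lower in each siEZH2 library than in any siCTRL library, and those of 6 (1.78%) were higher. The same held, lower and higher, for 22.9% and 31.4% of all tested rows and for 67% and 5.69% of rows with at least 100 counts. Shares of members lower thus lay a few percentage points above those of all rows with at least 100 counts. Shares of members higher lay at or below them. The 2 sets were not matched on count, with 72 of 338 members but 1607 of 4228 other rows at 100 to 200 counts. Other rows of that class were positive in 24.3%, against 4.63% from 200 to 1000 counts. These differences were not tested.

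Members centred below 0 as other well-covered rows did. Their median log2 fold change was -0.71, with 322 negative and 16 positive, while the 4228 other rows with at least 100 counts had a median of -0.68 and all tested rows one of 0.22. Between 100 and 200 counts the medians were -0.66 for members and -0.52 for other rows. From 200 to 1000 counts they were -0.72 for members and -0.75 for other rows, and from 1000 counts upwards -0.74 for members and -0.71 for other rows, with 87 of 87 members negative. Scaling only on well-covered rows, those that reach 200 counts in 2 libraries, moved the median of all rows to 0.88. On that scale members had a median of 0.01, with 172 positive and 166 negative, and other well-covered rows one of 0.05. The common direction of the members depends on the scaling, and what follows gives differences relative to each other or within a library.

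**Figure D3:**
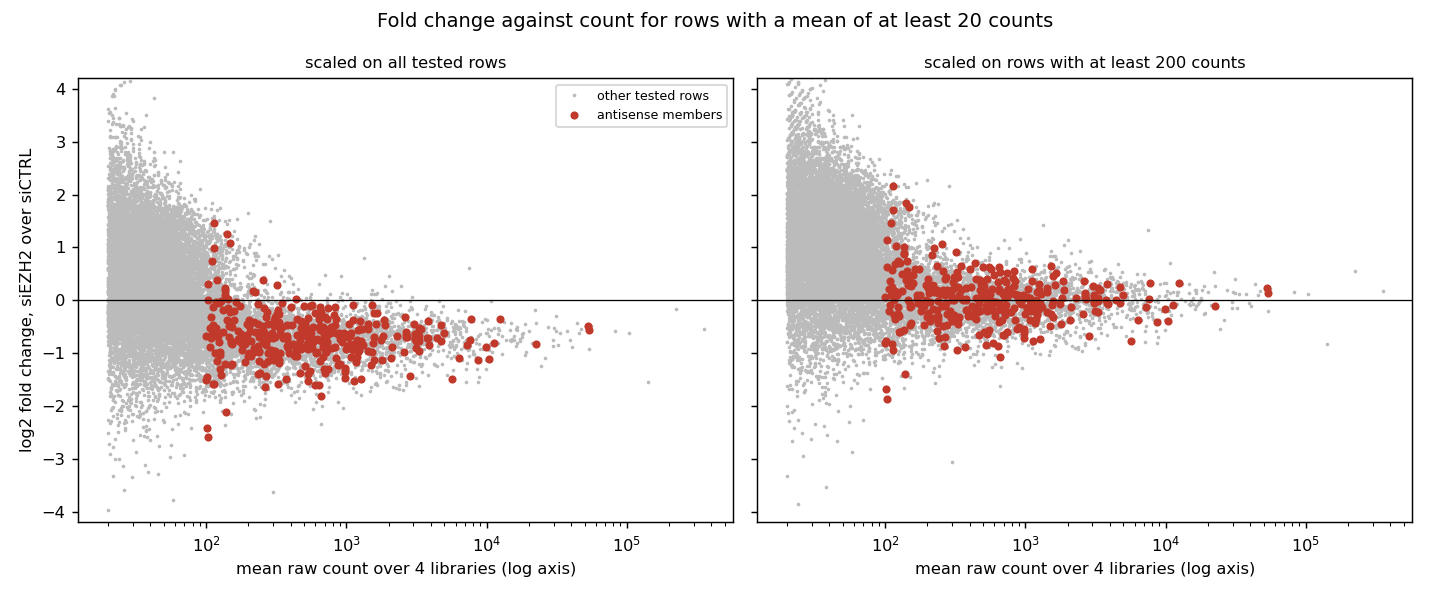
Log2 fold change, siEZH2 over siCTRL, against mean raw count (log axis) for tested rows with at least 20 counts; red points are members and grey points other rows, with scaling on all tested rows at left and on well-covered rows at right. Members lie within the cloud of other rows of the same count, around -0.71 at left and 0.01 at right.

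Faced rows, most of which had low counts, centred closer to 0. Of the 332 faced rows 320 were tested, with a median log2 fold change of -0.14, 134 positive and 186 negative, and 0.55 with scaling on well-covered rows. Of these 320, edgeR called 0 higher and 0 lower, where 0% of all tested rows were called. At an unadjusted p under 0.05, 12 were higher and 38 lower, where 8.53% and 7.91% of all tested rows were. DESeq2 called 1 higher and 22 lower, where it called 0.2% and 17.1% of the 5011 rows to which it gave an adjusted p. How many of the faced rows are among those 5011 is not given, so the 22 cannot be read as a share against the 17.1%. The limma-voom test called 1 higher and 6 lower, where it called 0.045% and 1.37% of all tested rows. The 103 faced rows with at least 100 counts had a median of -0.67, near that of members. The 189 with 20 to 100 counts had 0.09, and other rows of that count 0.39.

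Within pairs, the antisense row was more often the lower of the pair in siEZH2 cells. The pair difference, the log2 fold change of the antisense row minus that of the faced row, depends little on scaling. Over 324 tested pairs its median was -0.56, with 233 negative and 91 positive, and a range from -3.73 to 2.08. Both rows were negative in 180 pairs, the antisense row alone in 128, the faced row alone in 9, and neither in 7. The antisense row held a median 88.6% and 86.4% of a pair's counts in the siEZH2 libraries, against 93.0% and 90.0% in the siCTRL libraries. In 144 of 336 pairs the log2 ratio of antisense over faced counts was lower in each siEZH2 library than in any siCTRL library, and in 37 it was higher. No share of this kind is given for other pairs of rows, so the 144 and 37 pairs have no background to be read against. Rows with few counts centred higher than rows with many in the whole table, as given above. The part of this in the pair differences, and in the 144 and 37 pairs, was not tested.

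LMLN-AS1 and DIAPH3-AS1 stood at the negative end both by themselves and against their partners. They were chosen for these low values, so opposite directions in their pairs are not a separate result. LMLN-AS1 (chromosome 3, 198038321 to 198039234, minus strand) lies within LMLN, a metallopeptidase gene. Its row had 37 and 40 counts in the siEZH2 libraries, against 171 and 167 counts in the siCTRL libraries. LMLN had 55 and 54 counts in the siEZH2 libraries, against 15 and 22 counts in the siCTRL libraries. Antisense counts were lower in each siEZH2 library and faced counts higher, with no overlap in either row. LMLN-AS1 averaged 5.12 ± 0.24 CPM in siEZH2 cells and 30.9 ± 6.64 CPM in siCTRL cells (SD, n = 2 each), and its log2 fold change was -2.59 (SE 0.47, edgeR adjusted p = 0.159). The antisense share of the pair was 40.2% (exact 95% interval 30.1 to 51.0) and 42.6% (32.4 to 53.2) in the siEZH2 libraries, against 91.9% (87.0 to 95.4) and 88.4% (82.9 to 92.6) in the siCTRL libraries. These Clopper-Pearson intervals cover counting error only.

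DIAPH3-AS1 (chromosome 13, 60012751 to 60044357, plus strand) is opposite DIAPH3, a formin gene that acts in the actin ring of dividing cells. It had 43 and 40 counts in the siEZH2 libraries, against 180 and 140 counts in the siCTRL libraries. DIAPH3 had 76 and 84 counts in the siEZH2 libraries, against 17 and 37 counts in the siCTRL libraries. Both rows were apart between groups, in the opposite directions that this choice favours. The log2 fold change was -2.42 for DIAPH3-AS1 (SE 0.49, edgeR adjusted p = 0.165) and 1.17 for DIAPH3 (SE 0.58, edgeR adjusted p = 0.318). The stretches shown next are where each member crosses coding sequence of its partner, at chr3:198038547-198038663 on the minus strand and chr13:60042681-60042789 on the plus strand, with capitals as before.
LMLN-AS1: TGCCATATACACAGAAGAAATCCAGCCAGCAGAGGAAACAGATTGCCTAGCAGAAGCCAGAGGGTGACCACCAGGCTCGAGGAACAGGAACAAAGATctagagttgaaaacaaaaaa
DIAPH3-AS1: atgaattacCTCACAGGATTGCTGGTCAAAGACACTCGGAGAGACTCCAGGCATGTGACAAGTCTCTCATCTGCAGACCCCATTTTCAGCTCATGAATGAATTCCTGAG
CSRP3-AS1, opposite E2F8, and ILRUN-AS1, opposite a regulator of antiviral signalling, had the next lowest values. CSRP3-AS1 had 70 and 64 counts in the siEZH2 libraries, against 217 and 205 counts in the siCTRL libraries, a log2 fold change of -2.11 (SE 0.45, edgeR adjusted p = 0.165). CSRP3, a muscle LIM protein gene, had 6 and 5 counts in the siEZH2 libraries, against 6 and 6 counts in the siCTRL libraries, and was not tested. E2F8 had 20 and 61 counts in the siEZH2 libraries, against 9 and 23 counts in the siCTRL libraries, which overlap. ILRUN-AS1 had 257 and 490 counts in the siEZH2 libraries, against 884 and 1021 counts in the siCTRL libraries, a log2 fold change of -1.82 (SE 0.42, edgeR adjusted p = 0.189). ILRUN had 87 and 96 counts in the siEZH2 libraries, against 51 and 128 counts in the siCTRL libraries, which overlap. All 4 members stayed negative with scaling on well-covered rows, at -1.87, -1.68, -1.39 and -1.08.

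At the positive end stood long rows with few counts per kb. SCN1A-AS1, opposite sodium channel genes, had 140 and 221 counts in the siEZH2 libraries, against 38 and 59 counts in the siCTRL libraries. Its log2 fold change was 1.46 (SE 0.46, edgeR adjusted p = 0.194). TTN-AS1, opposite the gene of the muscle protein titin over 11381 exonic bases, had 258 and 167 counts in the siEZH2 libraries, against 41 and 99 counts in the siCTRL libraries, a log2 fold change of 1.25 (SE 0.47, edgeR adjusted p = 0.231). TMEM161B-AS1 had 133 and 303 counts in the siEZH2 libraries, against 46 and 107 counts in the siCTRL libraries, a log2 fold change of 1.09. HAND2-AS1, opposite a transcription factor gene of heart and limb, had 125 and 209 counts in the siEZH2 libraries, against 55 and 68 counts in the siCTRL libraries, a log2 fold change of 0.98. In all 4 members both siEZH2 libraries lay above both siCTRL libraries. They were chosen as the most positive members, so this is not a separate result. In normalised counts 5.69% of all rows with at least 100 counts were higher without overlap. Of the faced rows, SCN1A had 107 and 115 counts in the siEZH2 libraries, against 55 and 70 in the siCTRL libraries. TMEM161B had 87 and 127 counts in the siEZH2 libraries, against 79 and 90 in the siCTRL libraries, and HAND2 had 11 and 14 counts in the siEZH2 libraries, against 5 and 2 in the siCTRL libraries. Counts of SCN1A and HAND2 were apart between groups and those of TMEM161B overlapped.

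The 4 member rows averaged 6.06, 5.54, 4.19 and 5.39 counts per kb, near the summed level of markers of other cell types given above. The 16 members with a positive value had a median row length of 12.8 kb and a median of 15.0 counts per kb, and the 322 negative members 2.58 kb and 271 counts per kb. Of 11 members under 10 counts per kb 7 were positive, with a median of 0.38. The 391 other well-covered rows under 10 counts per kb had a median of 0.61, with 80.6% positive. Of 235 members with at least 100 counts per kb 1 was positive, and other rows of that level had 2.33% positive. Whether the low level per kb has a part in these positive values was not tested. TTN-AS1 and HAND2-AS1 are shown at chr2:178538740-178538859 and chr4:173527280-173527395, both on the plus strand, because they face developmental and muscle genes, with capitals as before.
TTN-AS1: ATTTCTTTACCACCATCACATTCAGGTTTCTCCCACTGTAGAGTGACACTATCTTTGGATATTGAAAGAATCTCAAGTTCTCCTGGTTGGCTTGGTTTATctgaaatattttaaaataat
HAND2-AS1: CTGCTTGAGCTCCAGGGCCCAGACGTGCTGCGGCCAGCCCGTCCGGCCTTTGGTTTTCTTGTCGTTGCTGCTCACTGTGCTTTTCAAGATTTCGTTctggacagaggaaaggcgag
TTN itself had 968 and 1491 counts in the siEZH2 libraries, against 695 and 1064 counts in the siCTRL libraries, and its log2 fold change of 0.05 turned negative under several alternatives.

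**Figure D4:**
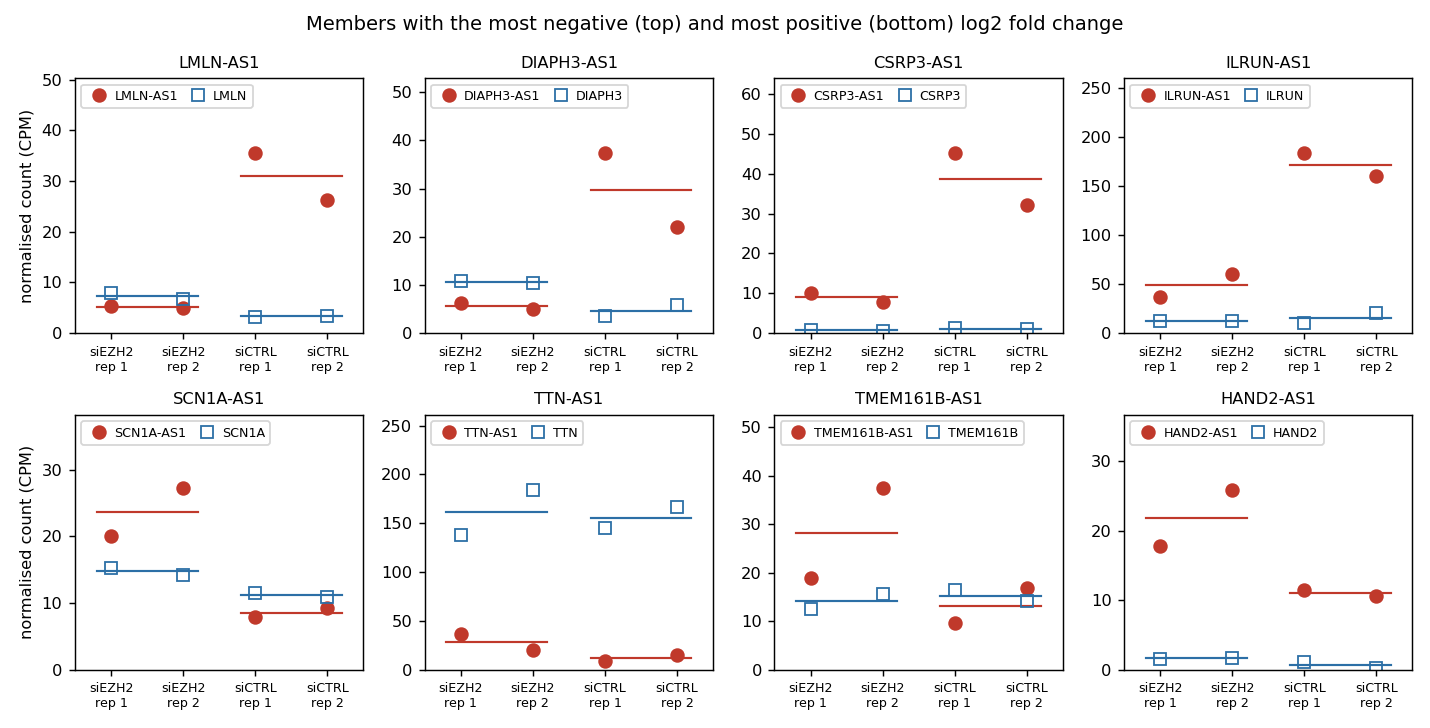
Normalised counts (CPM) in each library of the 4 members with the most negative (top) and most positive (bottom) log2 fold change, as filled circles, and of the rows they face, as open squares, with lines at group means. LMLN-AS1 lies below LMLN in the siEZH2 libraries and above it in the siCTRL libraries, with its mean at 5.12 CPM in siEZH2 cells and 30.9 CPM in siCTRL cells.

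The next most negative pairs were those of LIX1L-AS1 and GK-AS1. LIX1L-AS1 had 3269 and 3540 counts in the siEZH2 libraries, against 5039 and 3651 counts in the siCTRL libraries, and LIX1L had 39 and 34 counts in the siEZH2 libraries, against 6 and 3 counts in the siCTRL libraries. The pair difference was -3.36, of which the member's own log2 fold change made up -0.84. GK-AS1, opposite the glycerol kinase gene, had 83 and 50 counts in the siEZH2 libraries, against 133 and 138 counts in the siCTRL libraries, while GK had 80 and 52 counts in the siEZH2 libraries, against 13 and 23 counts in the siCTRL libraries. Its pair difference was -2.94, with log2 fold changes of -1.45 for GK-AS1 and 1.49 for GK. Both rows were apart between groups in opposite directions, which the choice by pair difference favours.

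In the most positive pairs the faced row was the lower one in siEZH2 cells, which the choice by pair difference sets. ENTPD1, which encodes the CD39 ectonucleotidase, had 1204 and 1588 counts in the siEZH2 libraries, against 2665 and 2428 counts in the siCTRL libraries. ENTPD1-AS1 had 115 and 191 counts in the siEZH2 libraries, against 63 and 70 counts in the siCTRL libraries, a pair difference of 2.08. CEBPB, a transcription factor gene, had 10 and 11 counts in the siEZH2 libraries, against 43 and 42 counts in the siCTRL libraries, and the pair with CEBPB-AS1 differed by 2.02. CEBPB-AS1 itself had 1153 and 922 counts in the siEZH2 libraries, against 875 and 1250 counts in the siCTRL libraries, which overlap. PCOLCE, a procollagen processing gene, and MDC1, a DNA damage checkpoint gene, gave pair differences of 1.94 and 1.33. PCOLCE-AS1 had 161 and 174 counts in the siEZH2 libraries, against 206 and 171 counts in the siCTRL libraries, which also overlap. Counts under PCOLCE were 5 and 2 in the siEZH2 libraries, against 14 and 19 in the siCTRL libraries, and those under MDC1 were 2 and 8 in the siEZH2 libraries, against 36 and 17 in the siCTRL libraries.

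Among the members are 16 that were picked, after values were seen, as opposite genes of cell division, DNA synthesis or DNA repair. The choice of these 16, and of the groups that follow, was made with the values known, so their counts and values say nothing of such genes in general. All 16 were negative, as were 322 of all 338 members, and with scaling on well-covered rows 13 were negative and RCC2-AS1, MCPH1-AS1 and POT1-AS1 positive. PRC1-AS1, opposite the spindle midzone gene PRC1, had 3839 and 3559 counts in the siEZH2 libraries, against 7715 and 7426 counts in the siCTRL libraries. PRC1 had 11 and 12 counts in the siEZH2 libraries, against 38 and 44 counts in the siCTRL libraries. Both rows were lower with no overlap, with log2 fold changes of -1.49 (SE 0.45, edgeR adjusted p = 0.191) for PRC1-AS1 and -2.26 (SE 0.76, edgeR adjusted p = 0.200) for PRC1.

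RRM1-AS1, opposite the large subunit gene of ribonucleotide reductase, had 647 and 776 counts in the siEZH2 libraries, against 1482 and 1031 counts in the siCTRL libraries. SGO1-AS1, opposite the shugoshin gene that protects cohesion at centromeres, had 319 and 415 counts in the siEZH2 libraries, against 770 and 615 counts in the siCTRL libraries. MDC1-AS1 had 244 and 515 counts in the siEZH2 libraries, against 888 and 722 counts in the siCTRL libraries. Their log2 fold changes were -1.32, -1.40 and -1.60, and none of the 3 overlapped between groups. In normalised counts 72.5% of all members and 67% of all rows with at least 100 counts were lower without overlap. SPAG5-AS1 (-1.09) faces the spindle gene SPAG5, CENPN-AS1 (-1.13) a kinetochore gene, TONSL-AS1 (-1.41) a replication fork repair gene, HLTF-AS1 (-1.28) a fork remodelling gene and ERCC8-AS1 (-1.59) a transcription-coupled repair gene. Faced rows did not move alike, with log2 fold changes of 1.23 for ERCC8, 0.51 for TONSL and -2.93 for MDC1.

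**Figure D5:**
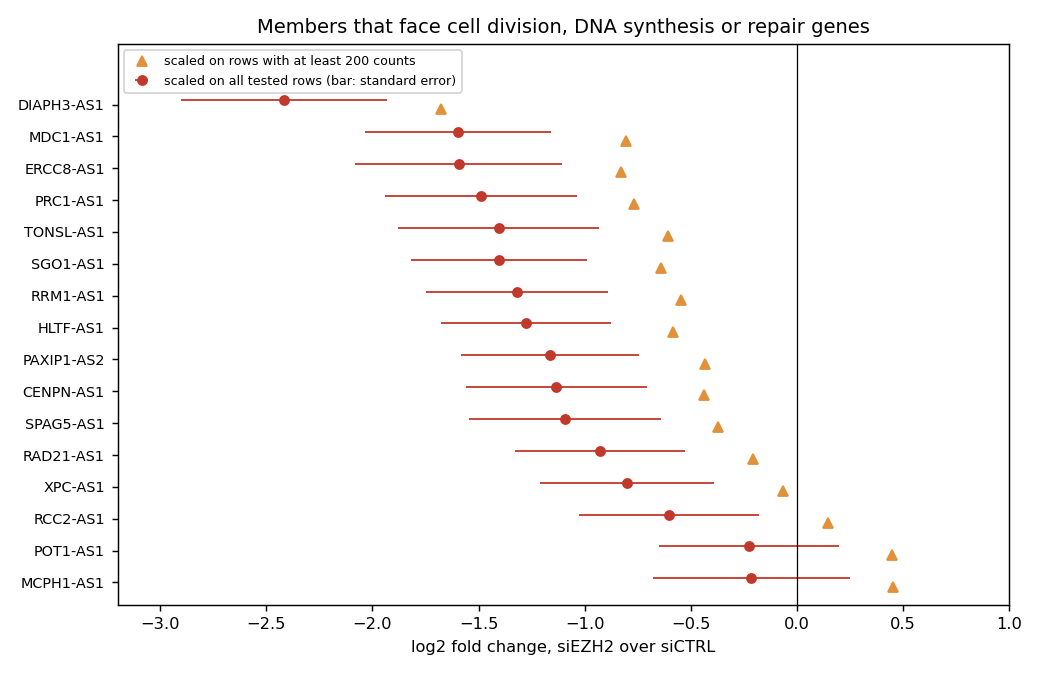
Log2 fold change, siEZH2 over siCTRL, of the 16 members that face genes of cell division, DNA synthesis or repair; circles with bars are values with their standard error when scaled on all tested rows, and triangles the values when scaled on well-covered rows. Values run from -2.42 for DIAPH3-AS1 to -0.22 for MCPH1-AS1, and 3 of the triangles lie above 0.

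A further 15 were picked as opposite chromatin genes. All 15 were negative, and with scaling on well-covered rows 7 were positive and 8 negative. EHMT2-AS1, opposite a histone H3 lysine methyltransferase gene, had 2281 and 2711 counts in the siEZH2 libraries, against 2916 and 2703 counts in the siCTRL libraries. YEATS2-AS1, opposite a histone acetylation reader gene, had 540 and 665 counts in the siEZH2 libraries, against 794 and 869 counts in the siCTRL libraries. Raw counts of EHMT2-AS1 overlapped and those of YEATS2-AS1 did not, and their log2 fold changes were -0.64 and -0.92. The rest, among them KDM4A-AS1, SMARCA5-AS1, L3MBTL2-AS1 and INO80-AS1, ran from -1.14 to -0.37.

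The 9 members picked as antisense RNAs that have been studied by themselves were also negative, and with scaling on well-covered rows 4 were positive and 5 negative. BACE1-AS, which is known to stabilise the messenger RNA of the beta-secretase BACE1, had 677 and 995 counts in the siEZH2 libraries, against 1705 and 1669 counts in the siCTRL libraries. BACE1 had 997 and 924 counts in the siEZH2 libraries, against 1045 and 838 counts in the siCTRL libraries. Antisense counts were thus apart between groups and BACE1 counts overlapped. BACE1-AS averaged 109.9 ± 18.6 CPM in siEZH2 cells and 308 ± 65.8 CPM in siCTRL cells (SD, n = 2 each), and its log2 fold change was -1.49 (SE 0.41, edgeR adjusted p = 0.189). Its share of the pair's counts was 40.4% (exact 95% interval 38.1 to 42.8) and 51.8% (49.6 to 54.1) in the siEZH2 libraries, against 62.0% (60.2 to 63.8) and 66.6% (64.7 to 68.4) in the siCTRL libraries.

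CTBP1-AS, known in prostate cancer as an androgen-induced antisense RNA that represses the corepressor gene CTBP1, had 5697 and 6757 counts in the siEZH2 libraries, against 8195 and 8094 counts in the siCTRL libraries. CTBP1 had 554 and 883 counts in the siEZH2 libraries, against 1046 and 1311 counts in the siCTRL libraries. Both rows were lower with no overlap, with log2 fold changes of -0.85 and -1.17. CDKN2B-AS1, also called ANRIL and known to bind Polycomb proteins, had 396 and 557 counts in the siEZH2 libraries, against 593 and 620 counts in the siCTRL libraries, a log2 fold change of -0.81 (SE 0.40, edgeR adjusted p = 0.313). CDKN2B had 34 and 20 counts in the siEZH2 libraries, against 13 and 28 counts in the siCTRL libraries, and CDKN2A 60 and 85 counts in the siEZH2 libraries, against 48 and 52 counts in the siCTRL libraries. Raw counts of the member were lower without overlap, but they are not scaled for total counts, which were also lower in both siEZH2 libraries. Raw counts of CDKN2B overlapped, and those of CDKN2A were higher in both siEZH2 libraries, with a log2 fold change of 0.08 for CDKN2A. OIP5-AS1 (-1.47), EGFR-AS1 (-1.06), HIF1A-AS1 (-0.71), AFAP1-AS1 (-0.38), VIM-AS1 (-0.31) and PINK1-AS (-0.08) make up the rest, of which HIF1A-AS1, AFAP1-AS1, VIM-AS1 and PINK1-AS turned positive with scaling on well-covered rows.

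Of members opposite prostate luminal genes, MME-AS1, which faces the neprilysin gene, had 1944 and 1928 counts in the siEZH2 libraries, against 4209 and 3249 counts in the siCTRL libraries. MME had 135 and 259 counts in the siEZH2 libraries, against 156 and 208 counts in the siCTRL libraries. The member was apart between groups while MME overlapped, and its log2 fold change was -1.42 (SE 0.44, edgeR adjusted p = 0.192). SRD5A3-AS1, opposite a steroid reductase family gene, had -0.96 and HPN-AS1, opposite the protease gene hepsin, had -0.35, which turned to 0.36 with scaling on well-covered rows. OXCT1-AS1, opposite a ketone body enzyme gene, had 481 and 621 counts in the siEZH2 libraries, against 592 and 766 counts in the siCTRL libraries, a log2 fold change of -0.74.

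Other noncoding RNAs in the table did not centre where the members did, and mostly had fewer counts. Of 38 listed regulatory noncoding RNAs that are not members 31 were tested, 18 positive and 13 negative, with a median of 0.21. edgeR called none of them, as it called none of all tested rows. At an unadjusted p under 0.05, 6 of the 31 were higher and 4 lower, where 8.53% and 7.91% of all tested rows were. MALAT1, a nuclear speckle RNA, had 69 and 26 counts in the siEZH2 libraries, against 124 and 90 counts in the siCTRL libraries. PCA3, a prostate cancer marker RNA that is itself antisense to PRUNE2, had 3612 and 2291 counts in the siEZH2 libraries, against 4199 and 4118 counts in the siCTRL libraries. KCNQ1OT1, an imprinted antisense RNA, had 762 and 839 counts in the siEZH2 libraries, against 402 and 560 counts in the siCTRL libraries. All 3 had groups apart in raw counts, with log2 fold changes of -1.61, -0.93 and 0.31. No stated rule picked these 3, and no share of rows apart in raw counts is given to read them against. Among the 18 positive RNAs of the list were PVT1 at 1.06 and MEG3 at 1.28, against 13 negative. The 324 tested antisense rows with 20 to 100 counts had a median of 0.10, the 1012 tested LINC rows one of 0.92 and the 142 divergent transcripts, named -DT, one of -0.14. The median mean count was 55.75 for the listed RNAs, 18.5 for LINC rows and 23.75 for -DT rows. Rows of any kind with 20 to 100 counts, faced rows left out, had a median log2 fold change of 0.39. The part of count level in these differences was not tested.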

How the data were processed

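The authors deposited raw counts, whole numbers for each gene row and library with no normalisation or pooling, beside each row's length in bases. Per the submitters' processing notes, the tools were featureCounts 2.0.3, STAR 2.7.10b, limma and edgeR and the build GRCh38, without roles or order. Not given in the sources used here are the annotation release, read layout and strand setting. Columns were matched to libraries, groups and replicate numbers by the sample titles. Total counts ran from 6162123 to 6867542, and intervals on shares cover counting error only.

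Rows were kept by filterByExpr (24431 kept), library sizes were scaled by TMM (factors 1.12 and 1.34 in siEZH2, 0.704 and 0.945 in siCTRL), and groups were compared with edgeR 4.0.16 in R 4.3.3 by glmQLFit and glmQLFTest without covariates. Benjamini-Hochberg adjustment covered every kept row, and calls were made at 0.05. The standard error (SE) is the log2 fold change divided by the square root of F. Simulated counts with known changes were used to test these steps. Members were set beside the row named before -AS, with older symbols looked up (GASK1B for FAM198B-AS1), and 0.5 was added to each count in log2 ratios within a library. With 2 libraries against 2, exact permutation of the labels gives no p under 0.333, so no such test is reported.

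Positions, exon overlaps and sequences came from GENCODE release 29 on GRCh38, whose release may differ from the authors'. Values in every library were given for the 8 members with the highest mean count, the 4 most positive and 4 most negative log2 fold changes and pair differences, and their faced rows. Of the 8, 1 is not reported here. Further members and opposite genes were chosen after their values were seen. The members, lists and tests were chosen with earlier results of these data known. Alternatives were RLE and upper-quartile factors, TMM factors from well-covered rows (200 counts or more in 2 libraries), DESeq2 1.42.0, limma-voom (limma 3.58.1), no filter, at least 50 counts in 2 libraries, a replicate block, and each library left out. Tables and plots used pandas 2.3.3, scipy 1.17.1, numpy 2.4.6 and matplotlib 3.10.9 under Python 3.11.15.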

Additional observations from a re-analysis of the deposited data

How the results depend on the processing

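The number of members called lower, 0 with edgeR and TMM, was 2 with RLE factors, 67 with DESeq2, 27 with limma-voom and 4 without a low-count filter. These are 0.592%, 19.8%, 7.99% and 1.18% of members, where 0.0876%, 18%, 5.87% and 1.01% of all rows with at least 100 counts were called lower. That of faced rows was 1, 22, 6 and 3 in the same order. The same settings called 0.0491%, 17.1%, 1.37% and 0.133% of all rows with an adjusted p lower. For DESeq2 these are 5011 rows, and how many faced rows are among them is not given. DESeq2 and limma-voom each called 1 faced row higher, where they called 0.2% and 0.045% of all rows with an adjusted p. Leaving out each library in turn gave 0 to 11 members called lower, the highest without siEZH2 replicate 1 (3.25%, where 1.97% of rows with at least 100 counts were called lower), and 0 to 4 faced rows. The median log2 fold change of members was 0.0063 with scaling on well-covered rows, -0.31 when rows needed 50 counts in 2 libraries, and -0.99 to -0.55 with a library left out. That of faced rows was -0.26 with RLE factors and with DESeq2, 0.55 with scaling on well-covered rows, 0.071 when rows needed 50 counts in 2 libraries, and -0.37 to -0.16 with a library left out. The median antisense share of a pair was 95.8% per kb against 89.3% in counts. The median pair difference kept its sign under all settings run, and was -0.74 to -0.34 with a library left out. Taking the faced row by largest exon overlap, a choice made after seeing the data, gave -0.58, and 299 of 319 pairs above 1 per kb. The cause of these changes was not tested.

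Deviations of same-numbered libraries correlated at 0.05 over all rows and 0.08 over rows averaging 100 counts or more. With only 2 libraries a group, these values cannot settle whether replicate numbers pair the libraries. With the replicate number as a block, 1 member (SCN1A-AS1, edgeR adjusted p = 0.0468) and 1 faced row were called higher. In that fit 84 members (24.9%) and 21 faced rows were called lower. It called 0.526% of rows with at least 100 counts higher and 20.5% lower, and 1.02% and 4.42% of all tested rows. Its medians were -0.73 for members, -0.20 for faced rows and -0.54 for pair differences.

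Directions of single rows turned mostly with scaling on well-covered rows. There MIF-AS1 came to 0.14, PCBP1 0.14, ATP6V0E2-AS1 0.33, PRMT5 0.58, TMEM161B 0.61, ILRUN 0.28, CEBPB-AS1 0.22, PCOLCE-AS1 0.10, PINK1-AS 0.64, HIF1A-AS1 0.021, VIM-AS1 0.38, AFAP1-AS1 0.37, EHMT2-AS1 0.10, KDM4A-AS1 0.37, SMARCA5-AS1 0.16, INO80-AS1 0.013, HPN-AS1 0.36, RCC2-AS1 0.15, MCPH1-AS1 0.45, POT1-AS1 0.45, MORC2-AS1 0.056, ADNP-AS1 0.11 and HMGN3-AS1 0.17. With at least 50 counts in 2 libraries ATP6V0E2-AS1 came to 0.029, PRMT5 0.29, TMEM161B 0.29, ILRUN 0.00719, PINK1-AS 0.33, VIM-AS1 0.078, AFAP1-AS1 0.045, KDM4A-AS1 0.046, HPN-AS1 0.054, MCPH1-AS1 0.16 and POT1-AS1 0.15. TTN came to -0.0659 with RLE factors and with DESeq2, and -0.031 without a filter. With a library left out, TTN ran from -0.19 to 0.16, PRMT5 from -0.31 to 0.029, ILRUN from -0.79 to 0.12, PINK1-AS from -0.35 to 0.072 and MCPH1-AS1 from -1.22 to 0.33. Upper-quartile factors turned none of the 81 rows examined. With 2 libraries a group and a median of 60 counts in faced rows, depth limits what single pairs can show.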
